A study of Mus musculus with 6 samples.

Results

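The genes described here are 10 receptors of the tumour necrosis factor (TNF) receptor superfamily, Tnfrsf25, Tnfrsf1a, Tnfrsf1b, Tnfrsf4, Tnfrsf9, Tnfrsf14, Tnfrsf18, Tnfrsf10b, Fas and Ltbr. They were taken by gene symbol from the non-control probes of the arrays, with every probe of each gene, and make up 10 of the 30342 gene names on the array. RNA came from γδ T cells of the spleen, which carry a T cell receptor of γ and δ chains. All mice were Eomes-IRES-GFP reporters (allele Eomestm1.1Twa, C57BL6 background), in which green fluorescent protein (GFP) is made from the same transcript as the T-box transcription factor Eomes. The Eomes-positive group was the GFP-positive cells and the Eomes-negative group the GFP-negative cells of the same sorts, so both groups carried the reporter allele. Cells bearing B220, CD4 or CD8β had been depleted, after which CD3-positive, TCRγδ-positive, TCRβ-negative cells were sorted. There were 3 separate sorts of spleens pooled from 4 to 6 mice each, aged 9, 9.5 and 7.5 weeks for sorts 1, 2 and 3, with 1 Eomes-positive and 1 Eomes-negative array from each sort. RNA inputs were 9, 9 and 4 ng, amplified once before labelling on one-colour Agilent arrays.

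TNF receptor superfamily proteins are cell-surface receptors for ligands of the TNF family, which are mostly trimeric. Members with a cytoplasmic death domain can recruit the adaptors TRADD or FADD and, depending on context, activate NF-κB or caspases. Members without one bind TRAF adaptors, and several of them, such as OX40, 4-1BB and GITR, act as costimulatory receptors on T cells.

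Levels are log2 processed signal minus the 75th percentile of the array, so that 0 is the signal that 75% of probes lay below. A level compares arrays for 1 probe only, since probes differ in brightness at equal RNA. A difference is the Eomes-positive mean minus the Eomes-negative mean. The test was limma's moderated test over the 16413 genes measured on enough arrays to be tested, with Benjamini-Hochberg adjustment and a threshold of 0.05. It called 454 genes, or 2.77%, of which 1.57% of those tested were lower and 1.2% higher in Eomes-positive cells. Before scaling, the 75th percentile was 534 to 1605 intensity units on Eomes-positive arrays and 549 to 1684 on Eomes-negative arrays, lowest in sort 3 in both groups. Eomes, the gene that defined the sort, stood at 4.48 to 5.31 in Eomes-positive cells and at -1.14 to 0.88 in Eomes-negative cells, a difference of 4.76 (SE 0.59, limma adjusted p = 0.0178, and 0.0156 to 0.251 when arrays were left out). The T cell receptor complex gene Cd3d lay between 6.95 and 7.15 on all 6 arrays. Other genes of the complex varied more, with Cd247 from 3.07 to 3.59. Cd3e (5.48 to 6.08) and Cd3g (6.17 to 6.90) were highest in sort 3 in both groups.

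The 10 genes were read by 13 probes of 60 bases, and each of these was well above background on all 6 arrays and saturated on none. Given here are the last 30 bases of the probes on which the results turn, that of Tnfrsf25 and both probes of Tnfrsf1a and Tnfrsf9, 5′ to 3′ as the scanner files give them. Capitals mark a polyadenylation signal hexamer (ATTAAA) in the Tnfrsf25 probe and a TG repeat of 22 bases at the end of the downstream Tnfrsf9 probe.
Tnfrsf25: ggacttggtATTAAAtttcgtaagaaaagc
Tnfrsf1a, upstream: gaatatcctcgaggctctgagaaatcccgc
Tnfrsf1a, downstream: atggatgaactgtgtaaggtaaggacaagc
Tnfrsf9, upstream: taacatatttgtctttaccttttttaaatc
Tnfrsf9, downstream: taaaatcaGTGTGTGTGTGTGTGTGTGTGT
In the mm9 build, the Tnfrsf25 probe lies at chr4:151494160-151494219 on the plus strand. The Tnfrsf1a probes lie at chr6:125311922-125311981 and chr6:125312376-125312435, and the Tnfrsf9 probes at chr4:150319101-150319160 and chr4:150319582-150319641, all on the plus strand. A search of the whole probe, in the orientation given, for AATAAA or ATTAAA matched 4 of the 13 probes, against 16.7% of the 39429 probes on the array. A run of at least 4 TG in a row was found in 1 of the 13, against 0.687% of all probes.

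The receptor genes are unevenly spread over the genome, with 6 on chromosome 4, 2 on chromosome 6 and 1 each on chromosomes 14 and 19. In the RefSeq gene table (GRCm38.p6), Tnfrsf4 and Tnfrsf18 are direct neighbours, Ltbr and Tnfrsf1a are parted by Scnn1a, and Tnfrsf1b lies beside Tnfrsf8, another receptor of the family. Tnfrsf25 sits between Plekhg5 and Espn.

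Among the 10 receptors, Tnfrsf25 fell in Eomes-positive cells and 0 rose by limma's adjusted p. That is 1 called gene of 10, against the 2.77% of all genes. At an unadjusted p under 0.05, a level passed by 12.2% of all genes, 1 was higher (Tnfrsf1a) and 2 were lower (Tnfrsf25 and Tnfrsf10b). The median difference of the 10 was -0.11, against -0.01 over all genes, whose middle 50% ran from -0.22 to 0.19. Same-sort arrays deviated together, and with the sort as a block limma also called Tnfrsf1a, higher in Eomes-positive cells, so that 1 receptor rose and 1 fell, where 3.66% of all genes rose and 4.33% fell (7.98% in either direction).

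**Figure D1:**
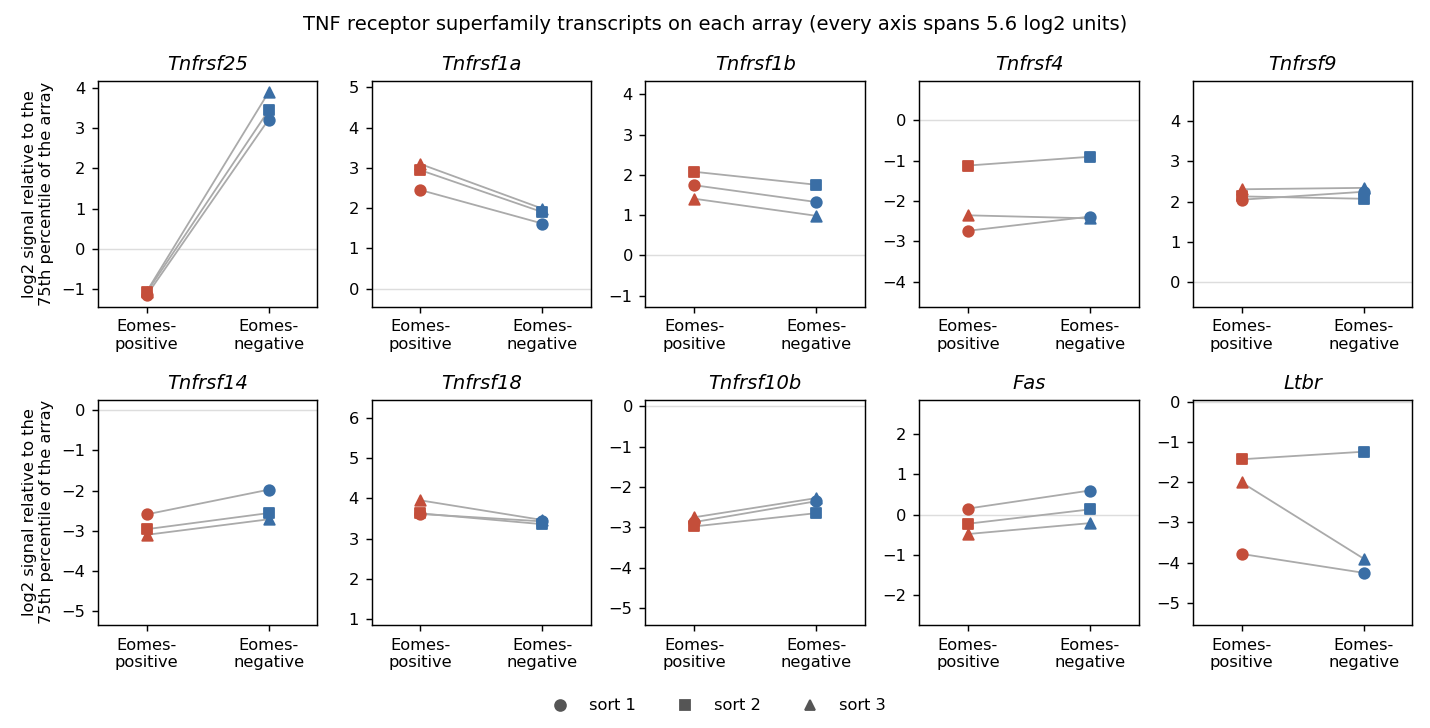
Level of each receptor gene on each array (log2 signal, with the 75th percentile of its array at 0), with Eomes-positive cells on the left and Eomes-negative cells on the right of each panel; lines join arrays of 1 sort, and every axis spans the same 5.6 log2 units. Tnfrsf25 lies between -1.15 and -1.06 in Eomes-positive cells and between 3.21 and 3.89 in Eomes-negative cells, while the groups of Tnfrsf1b, Tnfrsf4, Tnfrsf9, Tnfrsf14, Fas and Ltbr overlap. Each gene is shown by its brightest probe, and on the upstream Tnfrsf9 probe (not drawn) the groups do not overlap.

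Tnfrsf25 encodes death receptor 3 (DR3), a death-domain receptor that costimulates T cells on binding its ligand TL1A. Its level was -1.15, -1.08 and -1.06 in Eomes-positive cells of sorts 1, 2 and 3, against 3.21, 3.44 and 3.89 in Eomes-negative cells. Every Eomes-positive array was far below every Eomes-negative array. The processed intensities before scaling were 712, 760 and 257 in Eomes-positive cells and 15596, 18286 and 8161 in Eomes-negative cells. The means were -1.10 ± 0.05 in Eomes-positive and 3.52 ± 0.35 in Eomes-negative cells (SD, n = 3 each). The difference was -4.61 (SE 0.21, 95% interval -5.12 to -4.10, limma adjusted p = 0.00137), which is 24.4-fold lower in Eomes-positive cells. By the size of its moderated statistic the gene stood at rank 8 of the 16413 tested. Because RNA was taken from bulk sorted cells, fewer cells with the transcript and less transcript per cell cannot be told apart.

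The difference of Tnfrsf25 was -4.36, -4.52 and -4.95 within sorts 1, 2 and 3. The Eomes-negative levels of the gene spread over more than the Eomes-positive ones, so the order of these differences follows the Eomes-negative arrays. Over the 4 spots of the probe, the SD of the log2 signal on 1 array was 0.02 to 0.11. Without both arrays of sort 1 the difference was -4.73 (limma adjusted p = 0.0723), and without both of sort 2 it was -4.66 (0.0616). In both of these fits, of 2 arrays a group, 0 genes were called over the whole table, while 1354 and 1267 genes had an unadjusted p under 0.05. Slides, which coincided with scan days, divided the arrays unevenly, and 2 slides held both groups. Within slide 1 the difference was -4.48 and within slide 3 it was -4.95, and with the slide as a block it was -4.68 (adjusted p = 0.00703).

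Among genes listed as markers of other cell types, only Cd8b1 and Klrb1c were called different between the groups by limma. Of the αβ T cell list, Cd8b1, the CD8β chain whose bearers were depleted, fell in Eomes-positive cells (difference -2.86, SE 0.36, limma adjusted p = 0.0194). The log2 summed level of the 3 listed genes on the array was 1.14 to 1.28 in Eomes-positive and 2.66 to 3.2 in Eomes-negative cells, with Cd4 and Cd8b1 well above background on all 6 arrays. Cd8b1 was the brightest of the 3 in Eomes-negative cells and so weighs most in that sum. Cd4 (-0.39, limma adjusted p = 0.775) and Foxp3 (-1.09, 0.317) were not called. Of 4 NK cell genes, Klrb1c rose (1.66, SE 0.18, adjusted p = 0.0129), and the summed level was 4.92 to 5.99 in Eomes-positive and 3.50 to 5.64 in Eomes-negative cells. Of 6 B cell genes, 0 were called among the 5 tested, and the summed level was 2.84 to 3.50 in Eomes-positive and 3.88 to 4.17 in Eomes-negative cells, with Pax5 above background on 0 Eomes-positive and 2 Eomes-negative arrays. Whether these transcripts came from other cells or from the sorted γδ T cells was not tested, nor was any part of such cells in the Tnfrsf25 result. The summed level of the 4 CD3-complex genes was 7.99 to 8.34 in Eomes-positive cells and 8.05 to 8.41 in Eomes-negative cells, with 0 of the 4 called.

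The other death-domain receptors differed by less than 1 log2 unit. Tnfrsf1a encodes TNF receptor 1, the main receptor through which soluble TNF signals to NF-κB and cell death. It was measured at 2.45, 2.94 and 3.1 in Eomes-positive cells of sorts 1, 2 and 3, and at 1.62, 1.90 and 1.99 in Eomes-negative cells. The groups did not overlap, which was so for 4 of the 10 receptors and for 18.2% of all genes tested, each read by its brightest probe. Its means were 2.83 ± 0.34 in Eomes-positive and 1.84 ± 0.19 in Eomes-negative cells (SD, n = 3 each). The difference was 0.99 (SE 0.22, 95% interval 0.45 to 1.54), or 1.99-fold, and missed the threshold with limma adjusted p = 0.101. Within the sorts it was 0.83, 1.04 and 1.11, higher in Eomes-positive cells each time, and a block for the sort brought the SE to 0.10 and the adjusted p to 0.0192. Leaving out arrays gave 0.86 to 1.18, with adjusted p from 0.105 to 0.627 (limma, no block). With the slide as a block it was 0.87 (adjusted p = 0.139).

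Tnfrsf1a was read by another probe, 454 bases upstream. That probe stood at 1.34, 1.69 and 1.54 in Eomes-positive cells, against 0.35, 0.80 and 0.98 in Eomes-negative cells. Again the groups did not overlap. With each of 21131 probes as a feature of its own, the upstream difference was 0.82 (SE 0.22, limma adjusted p = 0.179), and a block for the sort gave an adjusted p of 0.0455. At that level 2.41% of probes were called, and 6.72% with the block.

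Tnfrsf10b encodes the mouse receptor for the death ligand TRAIL. Its level was -2.87, -2.98 and -2.75 in Eomes-positive cells and -2.35, -2.65 and -2.28 in Eomes-negative cells. No Eomes-positive array reached the lowest Eomes-negative one. The difference was -0.44 (SE 0.16, 95% interval -0.84 to -0.04, limma adjusted p = 0.338), and it was -0.52, -0.33 and -0.48 within the sorts. With the sort as a block its interval was -0.70 to -0.18 (limma adjusted p = 0.0765). Fas, the receptor for Fas ligand, had levels of 0.15, -0.22 and -0.48 in Eomes-positive cells, against 0.60, 0.13 and -0.21 in Eomes-negative cells. The Fas groups overlapped, although the Eomes-positive array was the lower one in each sort (-0.45, -0.36 and -0.27). Its mean difference was -0.36 (95% interval -1.04 to 0.32, limma adjusted p = 0.796), and ranged from -0.15 without Eomes-negative sort 1 to -0.55 without Eomes-negative sort 3. Blocked by sort, the Fas interval was -0.61 to -0.10 (limma adjusted p = 0.108).

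Of the receptors without a death domain, Tnfrsf18, which encodes the costimulatory receptor GITR, was at 3.61, 3.63 and 3.95 in Eomes-positive cells and at 3.43, 3.36 and 3.46 in Eomes-negative cells. These groups did not overlap, but the gap was small. The difference was 0.31 (SE 0.15, 95% interval -0.06 to 0.69, limma adjusted p = 0.543), or 0.20 to 0.38 when arrays were left out. Blocked by sort, the Tnfrsf18 interval was 0.02 to 0.61 (limma adjusted p = 0.170). Tnfrsf1b, encoding TNF receptor 2, which responds best to membrane-bound TNF, was at 1.74, 2.08 and 1.41 in Eomes-positive and 1.33, 1.75 and 0.98 in Eomes-negative cells. Its groups overlapped, since both followed the sort, with sort 2 highest and sort 3 lowest. Within the sorts the Tnfrsf1b difference was 0.42, 0.32 and 0.42, and the mean was 0.39 (95% interval -0.29 to 1.06, limma adjusted p = 0.759, and 0.0858 with the sort as a block), or 0.20 to 0.59 when arrays were left out. Tnfrsf1a and Tnfrsf1b were thus both higher in the Eomes-positive array of every sort, a like direction in all 3 sorts that 7 of the 10 receptors and 52.4% of all genes had.

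Tnfrsf14, encoding HVEM, a receptor for LIGHT that also engages the inhibitory receptor BTLA, was at -2.59, -2.96 and -3.1 in Eomes-positive cells and -1.98, -2.56 and -2.71 in Eomes-negative cells. The groups overlapped, and in each sort the Eomes-positive array was lower. The difference was -0.47 (SE 0.25, 95% interval -1.09 to 0.16, limma adjusted p = 0.621), or -0.61 to -0.25 when arrays were left out. With the sort as a block its interval was -0.74 to -0.19 (limma adjusted p = 0.0764). The downstream Tnfrsf14 probe, which is 559 bases away in the transcript, gave -0.48 on average (adjusted p over probes = 0.521), with -0.87, -0.65 and 0.07 within the sorts.

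**Figure D2:**
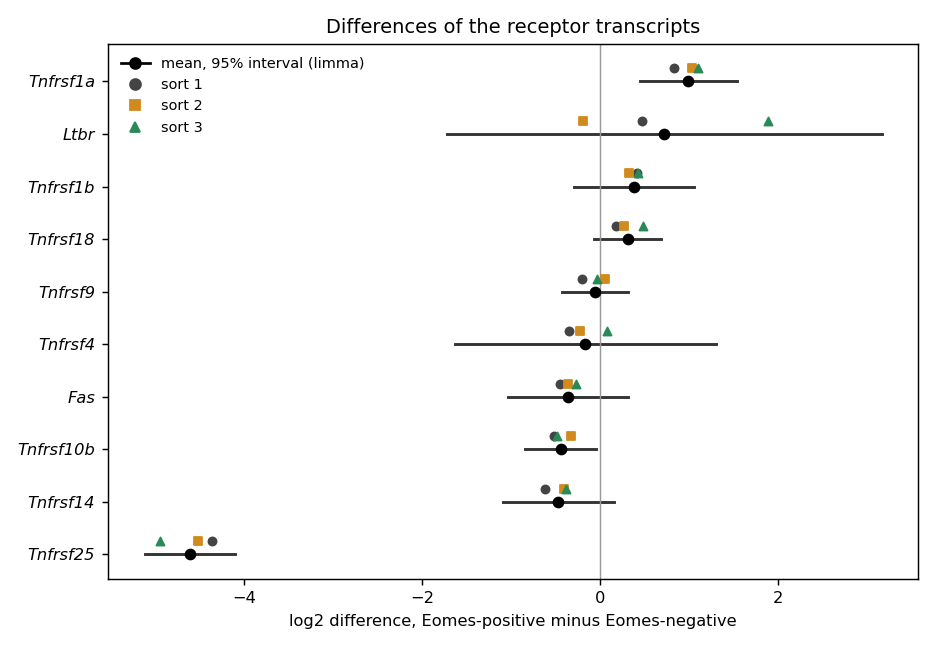
Difference of each receptor gene in log2 units, Eomes-positive minus Eomes-negative; black points are the means with 95% limma intervals (no block), and coloured symbols are the 3 sorts. The interval of Tnfrsf25 runs from -5.12 to -4.10, those of Tnfrsf1a and Tnfrsf10b also leave out 0, and that of Ltbr is the widest, from -1.72 to 3.17. With the sort as a block (not drawn), the intervals of Tnfrsf1b, Tnfrsf14, Tnfrsf18 and Fas leave out 0 as well. Their limma adjusted p with the block is 0.0764 to 0.170.

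Tnfrsf9 encodes 4-1BB (CD137), a costimulatory receptor induced on activated T cells, and its probes gave different answers. The downstream probe, the brighter one and so the one that stands for the gene, was at 2.05, 2.13 and 2.31 in Eomes-positive cells and 2.24, 2.07 and 2.34 in Eomes-negative cells. Its groups overlapped throughout, with a difference of -0.06 (SE 0.15, 95% interval -0.43 to 0.31, limma adjusted p = 0.98). The upstream probe, 481 bases away, was at 2.08, 2.12 and 2.17 in Eomes-positive cells, against 1.5, 1.44 and 1.46 in Eomes-negative cells. On the upstream probe of Tnfrsf9 every Eomes-positive array was above every Eomes-negative one, and the means were 2.13 ± 0.04 in Eomes-positive and 1.47 ± 0.03 in Eomes-negative cells (SD, n = 3 each). The upstream difference was 0.66 (SE 0.13, 95% interval 0.34 to 0.97), or 1.58-fold higher in Eomes-positive cells, with limma adjusted p over probes of 0.0754 and of 0.0383 with the sort as a block.

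Within each sort the upstream Tnfrsf9 difference exceeded the downstream one, by 0.78, 0.63 and 0.74 in sorts 1, 2 and 3. For Tnfrsf1a the same subtraction gave 0.16, -0.15 and -0.55, and for Tnfrsf14 it gave 0.26, 0.25 and -0.46, so neither had 1 direction in all sorts. The downstream Tnfrsf9 probe is the one whose printed end is the TG repeat, and whether the repeat bears on its signal was not tested.

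**Figure D3:**
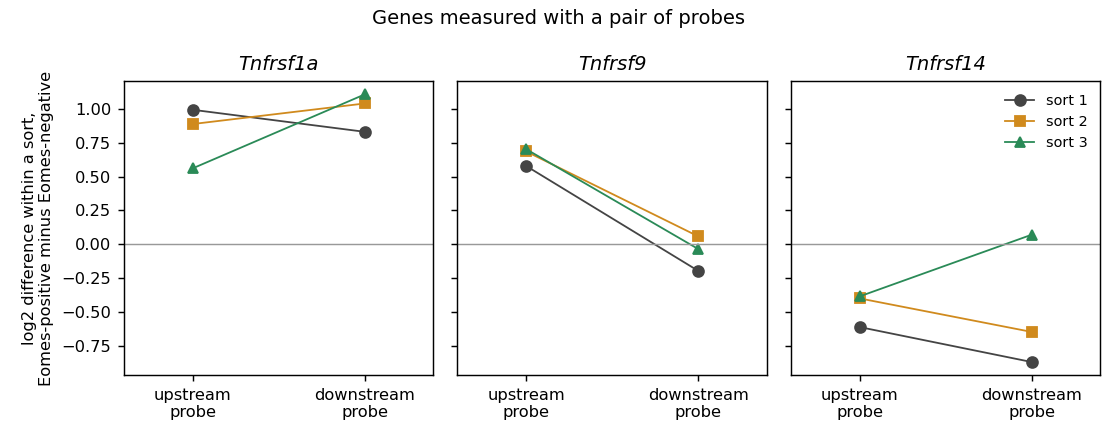
Difference within each sort (log2, Eomes-positive minus Eomes-negative) for the upstream and the downstream probe of the 3 receptors read by a pair of probes; lines join the probes within a sort. The upstream Tnfrsf9 probe is at 0.58 to 0.70 and the downstream one at -0.20 to 0.06, while the Tnfrsf1a probes are above 0 in all sorts.

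The remaining receptors, Tnfrsf4 and Ltbr, had the widest spread over the sorts within both groups. Tnfrsf1b, Tnfrsf14, Fas and the downstream Tnfrsf9 probe, with narrower spreads, also varied more between sorts than between groups. Tnfrsf4, which encodes the costimulatory receptor OX40, was at -2.74, -1.12 and -2.36 in Eomes-positive cells and -2.39, -0.90 and -2.43 in Eomes-negative cells. Its levels spanned 1.62 over Eomes-positive and 1.53 over Eomes-negative arrays, with sort 2 highest in both groups. The difference was -0.16 (95% interval -1.63 to 1.30, limma adjusted p = 0.99), and its sign turned when 1 array was left out (0.17 without Eomes-positive sort 1 and 0.34 without Eomes-negative sort 2). Ltbr, encoding the lymphotoxin β receptor, which is found mainly on stromal and myeloid cells, was at -3.78, -1.43 and -2.01 in Eomes-positive cells and -4.25, -1.25 and -3.90 in Eomes-negative cells. It too was highest in sort 2 in both groups, and its differences within the sorts were 0.47, -0.19 and 1.89. The mean difference of Ltbr was 0.72 (SE 0.99, 95% interval -1.72 to 3.17, limma adjusted p = 0.946). It ranged from 0.14 without sort 3 to 1.67 without Eomes-negative sort 2, and was 0.22 with the slide as a block and 0.30 with normexp background correction. On slide 1 (Eomes-positive sort 1, Eomes-negative sorts 1 and 2) it was -1.04, and on slide 3 it was 1.89. Tnfrsf4 likewise changed sign between these slides (-1.10 and 0.08), which no other receptor did.

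Genes listed as markers of several other cell types were also highest in sort 2. Lyz2, the lysozyme of macrophages and neutrophils, was at 0.67, 5.28 and 2.95 in Eomes-positive cells and 0.12, 5.22 and 2.37 in Eomes-negative cells. Of the 11 myeloid and dendritic cell genes on the array, 8 were highest in sort 2 in both groups, against 12.9% of genes measured on all the arrays. The exceptions were Itgam, highest in sort 3 in both groups (4.59 in Eomes-positive and 4.78 in Eomes-negative cells), and Csf3r and Siglech, highest in sort 1 in Eomes-positive cells (5.71 and 6.10) and in sort 2 in Eomes-negative cells (5.73 and 6.13). The same pattern was seen for 3 of 4 NK cell genes, 3 of 6 B cell genes and 2 of 2 erythroid and platelet genes, but for 0 of 4 stromal and endothelial and 0 of 4 CD3-complex genes. The log2 summed level of the myeloid list was 6.76 to 7.75 in Eomes-positive and 6.91 to 8.03 in Eomes-negative cells, with 9 of the 11 above background on all 6 arrays, 0 called by limma and a median difference of 0.01. Such a sum is weighted towards bright genes. Siglech, 1 of the exceptions, was the brightest of the list on every array (5.26 to 6.10 in Eomes-positive and 5.44 to 6.13 in Eomes-negative cells). Which cells these transcripts came from was not tested, nor was any part of such cells in the Tnfrsf4 and Ltbr levels.

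**Figure D4:**
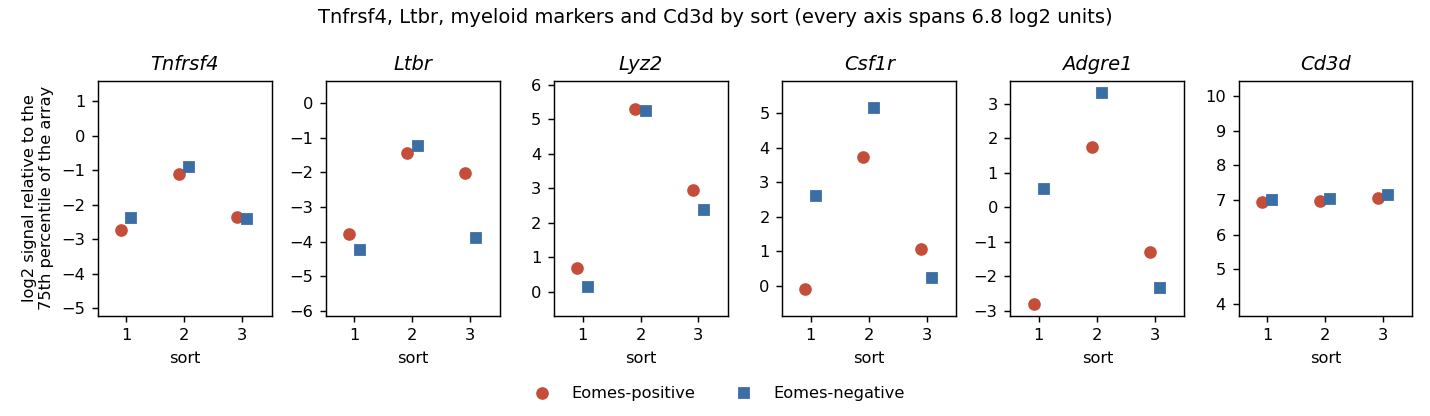
Level by sort (log2 signal, with the 75th percentile of its array at 0) of Tnfrsf4, Ltbr, Lyz2, Csf1r and Adgre1 (chosen from the myeloid list after their values were seen), and Cd3d, for Eomes-positive cells (circles) and Eomes-negative cells (squares); every axis spans the same 6.8 log2 units. All but Cd3d are highest in sort 2 in both groups, while Cd3d, the steadiest of the CD3-complex genes listed, stays between 6.95 and 7.15. Cd3g (not drawn) was at 6.17 to 6.29 in sorts 1 and 2 and at 6.85 to 6.90 in sort 3.

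Of the ligands of these receptors, Tnfsf10, encoding TRAIL, the ligand of the Tnfrsf10b product, rose in Eomes-positive cells. It was at 3.70, 3.57 and 3.77 in Eomes-positive cells and 2.19, 1.88 and 1.67 in Eomes-negative cells. The groups were well apart, with a difference of 1.77 (SE 0.18, limma adjusted p = 0.00992). It was not called without any 1 whole sort, without Eomes-positive sort 1 or without Eomes-negative sort 2, which left 4 of 9 fits with the call (adjusted p 0.0232 to 0.165). Fasl, encoding the ligand of Fas, differed by 0.87 (SE 0.17, limma adjusted p = 0.0761, and 0.0235 in the fit blocked by sort).

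For the ligand genes of TNF receptors 1 and 2 the differences were below 0. Tnf was at -4.0, -3.95 and -3.24 in Eomes-positive cells and -2.21, -1.39 and -0.48 in Eomes-negative cells, with no overlap. Its difference was -2.37 (SE 0.48, limma adjusted p = 0.0782, and 0.0159 with the sort as a block). Lta, encoding lymphotoxin α, differed by -1.28 (SE 0.36, adjusted p = 0.187, and 0.00929 with the block). Thus with the sort as a block Tnfrsf1a was called higher, and Tnf and Lta lower, in the same Eomes-positive cells. Without a block none of these genes was called, with all arrays or with arrays left out. With the slide as a block the limma adjusted p was 0.139 for Tnfrsf1a, 0.0535 for Tnf and 0.0364 for Lta. Ltb, encoding the membrane partner of lymphotoxin α that engages the lymphotoxin β receptor, differed by -0.14 (limma adjusted p = 0.961), and Tnfsf14, encoding LIGHT, by -0.84 (0.0836).

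Tnfsf9, encoding the 4-1BB ligand, differed by 0.18 (limma adjusted p = 0.951). Tnfsf4, encoding the OX40 ligand, differed by 1.02 (adjusted p = 0.556) and was measured on 2 Eomes-positive arrays and 1 Eomes-negative array. Tnfsf15, which encodes TL1A, the ligand of DR3, was measured on 0 Eomes-positive arrays and 1 Eomes-negative array, as was Tnfsf18, the GITR ligand gene, and neither was tested.

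The wider list around the receptors held 80 genes of ligands, other receptors, adaptors and NF-κB, of which 66 were tested. Of these, limma called 2 higher, Tnfsf10 and Traf1, and 0 lower, with 7 higher and 5 lower at an unadjusted p under 0.05 and a median difference of 0.05. The shares over all genes were 2.77% called and 12.2% with an unadjusted p under 0.05. Traf1, encoding an adaptor that binds TNF receptor 2 and 4-1BB complexes and is itself an NF-κB target, was at 4.19, 3.83 and 4.01 in Eomes-positive cells and 2.42, 2.4 and 2.36 in Eomes-negative cells. The 3 Eomes-positive arrays were all higher, by 1.62 (SE 0.15, limma adjusted p = 0.00719), or 3.07-fold. Traf1 was called in the 6 fits that left out 1 array and in none of those that left out a whole sort (adjusted p 0.0244 to 0.163). It was the only one called among the 22 genes of TRAF adaptors and their regulators in the fit without a block.

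With the sort as a block, 4 genes of the list were called higher and 4 lower, where 3.66% of all genes were called higher and 4.33% lower. Besides Tnfsf10, Traf1, Fasl, Tnf and Lta these were Tnfsf8 (1.35, adjusted p = 0.0115), Tnfrsf21 (-0.97, 0.0219) and Tab1 (-0.56, 0.0412), named here because they were the rest of the count. Of 13 death adaptor and caspase genes and of 10 NF-κB genes, 0 were called by limma with or without the block, at medians of -0.09 and 0.03. In lists this short a count of 0 is near the 2.77% of all genes called without and the 7.98% called with the block. At an unadjusted p under 0.05 (no block), 2 death adaptor and caspase genes were higher and 2 lower, and 1 NF-κB gene was higher. The brightest genes of these roles, whatever their p, were Daxx (-0.17) and Casp8, the initiator caspase of death receptors (-0.01), Nfkbia, the inhibitor IκBα (-0.17), and Rela, the p65 subunit (0.22). None of these was among the genes just counted, with unadjusted limma p of 0.292 to 0.976. Of the 11 other receptors tested 0 were called without the block, and the brightest were Cd27 (0.12, limma adjusted p = 0.972) and Tnfrsf13b (-0.22, 0.775).

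**Figure D5:**
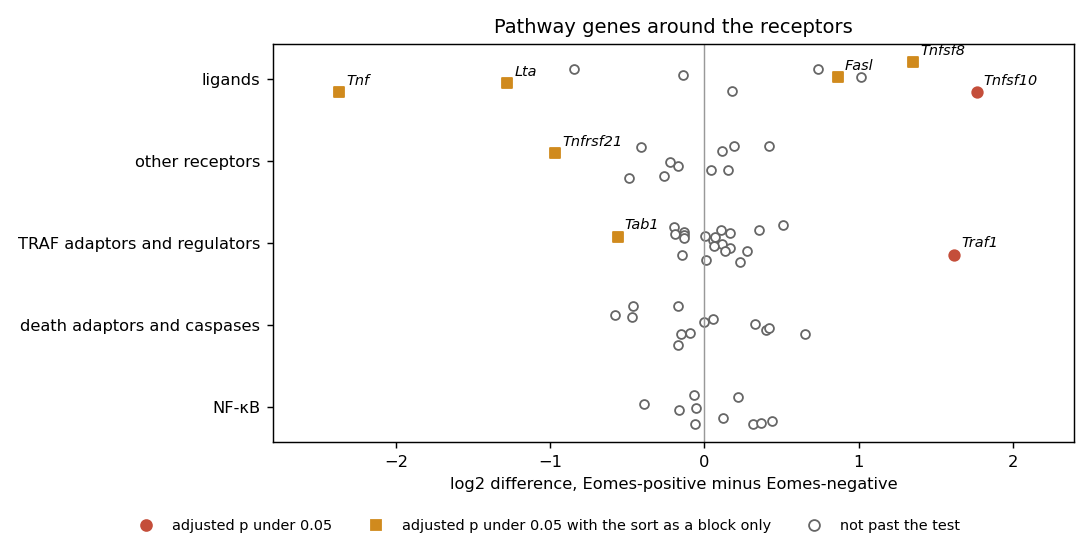
Difference in log2 units (Eomes-positive minus Eomes-negative) of the 66 tested genes around the receptors, in rows by role, with points scattered vertically for legibility; filled circles passed limma's adjusted p of 0.05, squares passed it with the sort as a block only, and open circles passed neither. The ligand row spreads from -2.37 (Tnf) to 1.77 (Tnfsf10), and no point passed in the death adaptor and NF-κB rows.

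Over the 6 arrays, the genes whose levels were most like those of Tnfrsf25, among 10616 genes with a plain symbol measured on every array, were Lmf1 (Pearson's r = 0.998), Clta (0.996), Prdx6 (0.996) and Actn2 (0.996). The 6 points fall into the 2 groups, so such an r mainly reflects the difference between them and is given as a description. In size these genes differed widely, since Actn2 fell by 3.80 (limma adjusted p = 0.00319) while the differences of Lmf1 (-0.59, adjusted p = 0.0864), Prdx6 (-0.45, 0.176) and Clta (-0.23, 0.598) were not called.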

How the data were processed

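Total RNA was measured on 6 one-colour arrays. The deposited scanner intensity is the processed signal of Agilent Feature Extraction 10.7.3.1, per the file headers. The deposited 0 or 1 flags mark spots well above background, saturated or outliers, per the file headers. The authors' deposited value table holds 1 scaled intensity per probe (75th percentiles 1497 to 1506). How it was scaled is not given in the sources used here.

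Spots of a probe (4 each) were averaged as log2 of the deposited intensity without outlier spots, and each array was set to its 75th percentile by subtraction. Being measured meant that 50% or more of the spots of a probe carried the flag for signal well above background. RefSeq accessions named 27508 of 39429 probes (2017 renamed), and 11921 kept the scanner file's name. Each gene was represented by its brightest probe. Those measured on 3 or more of the 6 arrays were tested with limma 3.58.1 (R 4.3.3, data.table package 1.17.8; lmFit, eBayes, group only) and Benjamini-Hochberg adjustment. With 3 arrays a group, the smallest two-sided p of an exact permutation test is 0.1. Figures used Python 3.11.15, pandas 2.3.3 and matplotlib 3.10.9.

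The replicate numbers name 3 independent sorts, per the series' design text, and same-number deviations correlated at 0.812, 0.818 and 0.808 (other pairs -0.26 to -0.569). A fit with the sort as a block is therefore given where it changed a call, and for several receptors where it did not. Slide and scan day coincided. The number of arrays limits the precision.

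Receptors and lists were chosen with earlier results of these data known. Named were all 10 receptors, Eomes, the receptors' ligands, up to 4 called genes per role (or the 2 brightest) and the 4 genes most like Tnfrsf25. Alternatives were quantile, median and normexp (offset 50) processing, the value table, other filters and probe rules, sort or slide blocks and leaving out arrays. Fits of the upstream Tnfrsf9 probe under these settings were added after its probes were seen to differ.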

Additional observations from a re-analysis of the deposited data

How the results depend on the processing

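Tnfrsf25 stayed lower in Eomes-positive cells in every setting run and was called in all 10 settings that kept every array (limma adjusted p 0.000608 to 0.00703). Leaving out arrays gave -4.76 to -4.42, and it was not called without both arrays of sort 1 (-4.73, adjusted p = 0.0723) or of sort 2 (-4.66, 0.0616). Of all genes, leaving out arrays called 0 to 101 higher and 0 to 180 lower, 0 to 1 lower receptors, and 0 to 2 higher genes of the list around the receptors. The replicate block (same-sort pairing) called 600 higher and 710 lower over all genes, 1 higher receptor, and 4 higher and 4 lower list genes, and changed no other call among the receptors. With the slide as a block 1 list gene, Lta, was called lower. The filter on all 6 arrays called 166 lower, and no filter called 92 higher and 154 lower. The Tnfrsf9 difference reversed with the median of each array (0.041), with the mean of its probes (0.30), without sort 1 (0.012) and without Eomes-negative sort 3 (0.0038), and leaving out arrays gave -0.13 to 0.012. That of Tnfrsf4 reversed without Eomes-positive sort 1 (0.17) or Eomes-negative sort 2 (0.34), within -0.64 to 0.34. The upstream Tnfrsf9 probe gave 0.63 to 0.75 over 15 settings and was called in 1, the replicate block. Apart from the fewer arrays or genes of some settings, the cause was not tested. The 3 arrays per group limit what could be detected.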
